A study of Homo sapiens with 18 samples.

Results

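Septins are GTP-binding proteins that join end to end into filaments and rings beneath the plasma membrane. They are regarded as a further component of the cytoskeleton beside actin, microtubules and intermediate filaments, and they are best known for the ring at the cleavage furrow of dividing cells, for scaffolds that hold other proteins at the cell cortex and for barriers that slow diffusion in membranes. Human septins fall into groups named after SEPT2, SEPT3, SEPT6 and SEPT7. A filament is built from rods that take in a member of each of the SEPT2, SEPT6 and SEPT7 groups, with or without SEPT9 of the SEPT3 group. Members of a group can stand in for each other in the rod, and SEPT7 is the usual representative of its own group.

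The 8 genes described here are SEPT2, SEPT3, SEPT5, SEPT6, SEPT7, SEPT8, SEPT10 and SEPT11, of 58302 genes in the tables, where their names are written as dates (2-Sep, 3-Sep, 5-Sep, 6-Sep, 7-Sep, 8-Sep, 10-Sep and 11-Sep). They belong to 13 protein-coding septin genes that the tables list, and the other 5 (SEPT1, SEPT4, SEPT9, SEPT12 and SEPT14) are given only for comparison. The set was chosen by its own measured values, the FPKM of control and SYK knockdown cells, after several septins had been seen at higher levels in the latter. The differences between knockdown and control cells in these 8 genes are therefore a description with no test.

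RNA-seq was performed in 3 human lung cancer cell lines. EBC-1 carries a MET amplification, while PC-9 and HCC827 both carry an EGFR exon 19 deletion. In each line, cells with stable knockdown of the tyrosine kinase SYK by an shRNA (shSYK) were set against cells of the matching negative control (nc). Each of the 6 groups has 3 libraries, 18 in all. The shRNA is a single clone, and it was delivered by lentivirus. The sources used here do not say whether the 3 libraries of a group came from separate cultures, so p-values measure the spread between these libraries, which may be technical.

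Reads on genes ranged from 11308942 to 15729103 per library in EBC-1, from 9362879 to 12913607 in PC-9 and from 7920099 to 12451217 in HCC827. SYK itself, the targeted gene, fell in each line. Its level was 14.2 ± 1.07 FPKM (fragments per kilobase of gene, scaled to the size of the library; SD, n = 3) in nc and 7.43 ± 0.19 in shSYK of EBC-1, 6.51 ± 0.70 and 2.09 ± 0.39 in PC-9, and 9.08 ± 0.65 and 2.99 ± 0.47 in HCC827. By limma the adjusted p was 0.00027 for EBC-1, 0.0073 for PC-9 and 0.0002 for HCC827, and no library of one group reached the range of the other. All 5 epithelial markers examined (EPCAM, CDH1, KRT8, KRT18 and KRT19) had a mean of at least 1 FPKM in every group. CDH1 fell from 128 to 104 FPKM in EBC-1 (limma adjusted p = 0.0091) and from 140 to 103 in HCC827 (adjusted p = 0.0031). KRT19 also fell in both lines and KRT18 in EBC-1. EPCAM and KRT8 had no adjusted p under 0.05 in any line, and none of the 5 had in PC-9. Of fibroblast and blood genes examined, COL1A1 in every group and CD14 in HCC827 nc reached a mean of 1 FPKM. Of endothelial genes, PECAM1 and CDH5 did so in PC-9, where PECAM1 fell (adjusted p = 0.0049). MET stood between 436 and 632 FPKM in the EBC-1 libraries. In PC-9, nc 1 and nc 2 stood apart from each other and from the rest. Their mean absolute distance from the other libraries of their group was 0.34 and 0.31 on the log2(FPKM + 1) scale, against 0.12 to 0.20 for the other 16 libraries, so the PC-9 log2 differences of the septins are given with and without them.

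In hg38, SEPT2 (chromosome 2, 241315100 to 241354027), SEPT3 (chromosome 22, 41976272 to 41998221), SEPT5 (chromosome 22, 19714464 to 19724772), SEPT7 (chromosome 7, 35800932 to 35907105) and SEPT11 (chromosome 4, 76949703 to 77040384) lie on the + strand. SEPT6 (chromosome X, 119615724 to 119693370), SEPT8 (chromosome 5, 132750817 to 132807241) and SEPT10 (chromosome 2, 109542982 to 109614206) lie on the - strand. The promoters of septins of the set were examined for binding motifs of the factors that the study places downstream of SYK. Sp1 is a transcription factor that binds GC boxes, and FRA1 is a subunit of AP-1. RefSeq promoter windows of 300 bases, 250 before and 50 after each annotated start (GRCh38.p14), were at hand for 6 of the 8 genes, with 11 windows between them. SEPT3 and SEPT5 have no entry. The GC box was searched as GGGCGG on either strand, with overlapping copies each counted, and AP-1 as TGANTCA, which reads alike on both strands. Of the 11 windows, 9 held a GC box, and each of the 6 genes had at least 1 such window. Windows of SEPT7 overlap each other, as do some of SEPT2, so some bases are counted more than once. The share for windows of like G and C content was not computed. None of these 11 windows held TGANTCA, but windows of SEPT4 and SEPT9, septins outside the set, did. Over all 35116 windows of the table, 44.95% held a GC box, 15.77% held at least 3 copies and 7.709% held TGANTCA. The 11 windows of the set had between 51.33% and 78% G and C, and the median over all windows was 58.67%. For 5 of these genes, 1 GC box upstream of an annotated start is printed below on the strand of the gene with its flanking bases, since these are the places where the letters of the Sp1 motif stand. Capitals mark the GC box whose distance is given, and the stretches of SEPT2, SEPT8 and SEPT10 each hold a further copy in lower case.

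SEPT2, chr2:241315890-241315919, + strand, 23 bases before a start: cggggcgggctgGGGCGGgctgtgagcgga
SEPT6, chrX:119693273-119693302, - strand, 122 bases before a start: ctttcaaggggtGGGCGGtagaggggaggt
SEPT8, chr5:132777291-132777320, - strand, 69 bases before a start: gggcgggggcagGGGCGGctccgcggcttc
SEPT10, chr2:109613986-109614015, - strand, 37 bases before a start: tccgccccaaccCCGCCCccggaggcctcc
SEPT11, chr4:76949622-76949651, + strand, 118 bases before a start: cccaccatcctcCCGCCCaccaccgcggcc

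Each printed stretch of 30 bases was set against the gene models of GENCODE v44 (hg38). The stretch of SEPT2 overlaps an exon of 13 of 45 transcripts, and that of SEPT6 an exon of 6 of 9. Those of SEPT8 and SEPT10 overlap an exon of 3 of 16 and 3 of 14 transcripts. None overlaps coding sequence, and that of SEPT11 lies outside all its 16 transcripts. Whether the box itself lies in those exons was not examined. The box of SEPT10 and SEPT11 lies on the opposite strand of the gene, and that of SEPT2, SEPT6 and SEPT8 on the same strand. The GC-rich windows of SEPT2 and SEPT10 held up to 6 copies each. The presence of the letters is a description of the reference sequence and says nothing about binding in these cells.

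In control cells the septins covered a wide range of levels. SEPT2, the founding member of its group and a partner of myosin II at stress fibres and the furrow, was the highest of the 8 genes in every line, at 25.7 ± 1.49 FPKM (n = 3 here and below) for EBC-1, 60.5 ± 5.67 for PC-9 and 63.8 ± 1.67 for HCC827. These levels come from tables normalized separately for each line and are not compared between lines. It exceeded 83.9% of the EBC-1 genes tested, 93.5% of the PC-9 genes and 93.7% of the HCC827 genes. The order below SEPT2 differed. In EBC-1 nc cells it was followed by SEPT11 (12.9 ± 1.30), SEPT8 (10.9 ± 0.98), SEPT10 (9.07 ± 1.63), SEPT7 (6.24 ± 1.54), SEPT6 (4.31 ± 0.35), SEPT5 (3.601 ± 0.29) and SEPT3 (0.637 ± 0.097). The ranges of SEPT8, SEPT10 and SEPT7 overlapped from one to the next, and those of the other neighbours did not. In PC-9 nc cells the order was SEPT7 (9.14 ± 4.37), SEPT10 (7.68 ± 2.33), SEPT8 (7.30 ± 0.23), SEPT6 (6.28 ± 0.66), SEPT11 (4.55 ± 0.81), SEPT3 (2.21 ± 0.31) and SEPT5 (1.63 ± 0.44), with overlap between SEPT7, SEPT10 and SEPT8 and between SEPT3 and SEPT5. In HCC827 nc cells it was SEPT8 (9.79 ± 0.23), SEPT11 (8.35 ± 0.66), SEPT10 (7.39 ± 0.58), SEPT7 (6.55 ± 0.043), SEPT6 (1.79 ± 0.19), SEPT5 (0.199 ± 0.079) and SEPT3 (0.161 ± 0.13), with overlap between SEPT11 and SEPT10 and between SEPT5 and SEPT3. SEPT3 and SEPT5, known as septins of neurons, thus stood last in each line.

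**Figure D1:**
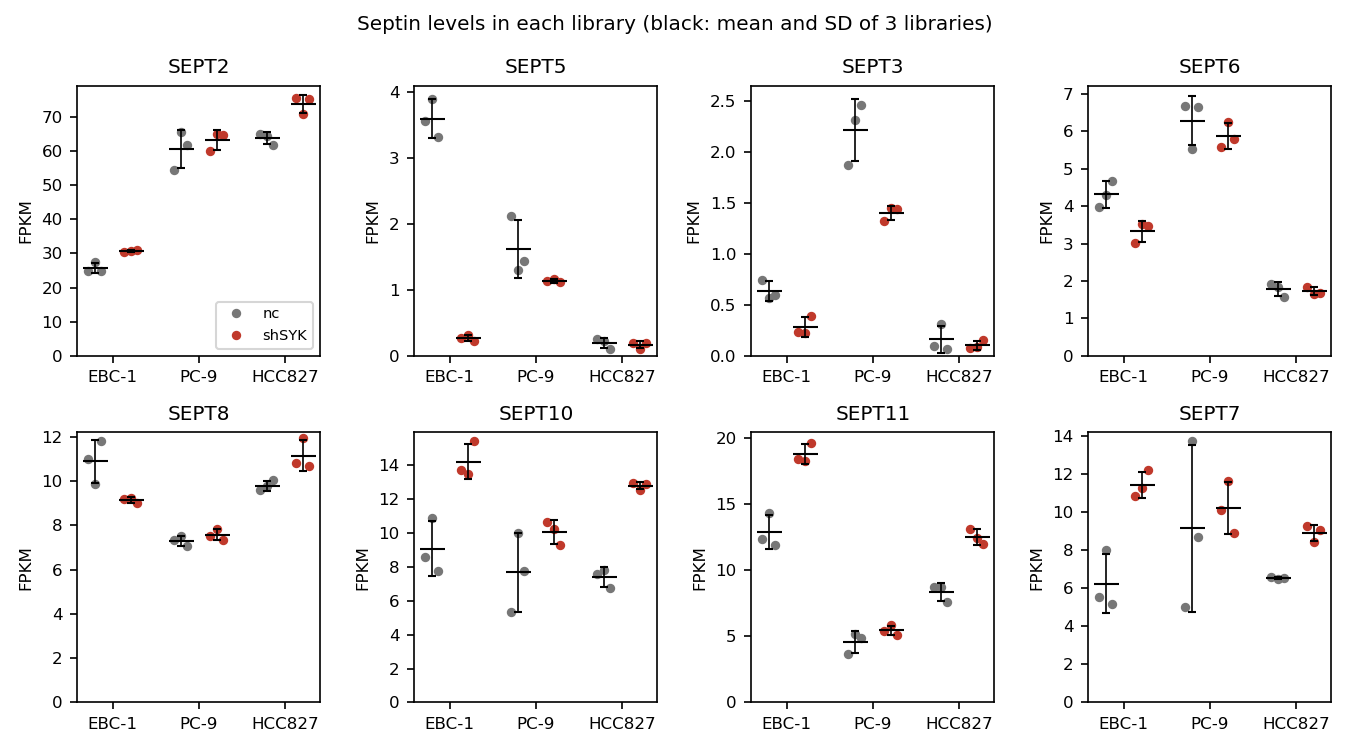
FPKM (linear axes from 0) of the 8 septins in each of the 18 libraries, grey for nc and red for shSYK, with the mean and SD of 3 libraries in black. In EBC-1 and HCC827 all red points of SEPT2, SEPT7, SEPT10 and SEPT11 lie above all grey ones, and SEPT5 in EBC-1 went from 3.601 to 0.270 FPKM.

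SEPT7, the group shared by nearly all septin rods, had the largest upward difference of the set in EBC-1. Its FPKM was 5.55, 7.998 and 5.16 in the nc libraries and 10.8, 11.3 and 12.2 in the shSYK libraries, a ratio of the means of 1.83. All shSYK libraries stood above all nc libraries, and nc 2 was the highest of the controls. The difference was 0.80 ± 0.14 (SE) on the log2(FPKM + 1) scale, a scale that understates changes of low genes. In HCC827 the nc libraries held 6.60, 6.51 and 6.55 FPKM and the shSYK libraries 9.26, 8.42 and 9.03. The groups did not overlap there, the ratio was 1.36 and the difference was 0.39 ± 0.057. In PC-9 the nc libraries spread from 5.02 in nc 1 over 8.67 in nc 3 to 13.7 in nc 2, and the shSYK libraries, at 10.1, 11.6 and 8.93, lay inside that range. The PC-9 difference was 0.23 ± 0.29, -0.095 ± 0.18 without nc 1 and 0.55 ± 0.20 without nc 2, so its sign rests on the nc 1 library. SEPT7 has many processed copies in the genome. The 8 SEPT7 pseudogenes of the tables together held between 4.86% and 14.3% as many reads as SEPT7 in a library. Most of these were on SEPT7P2, which stood at 1.81 ± 0.39 in nc and 1.63 ± 0.22 in shSYK of EBC-1, so how reads were divided between them is uncertain.

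In the SEPT2 group, SEPT2 was higher after knockdown in EBC-1 and HCC827. Its FPKM was 24.7, 27.4 and 24.9 in nc and 30.5, 30.7 and 31.1 in shSYK of EBC-1, and all shSYK libraries stood above the controls. The ratio of the means was 1.20 and the log2 difference 0.25 ± 0.066. The HCC827 values were 65.0, 64.5 and 61.9 in nc and 75.5, 70.8 and 75.1 in shSYK, again without overlap, with a ratio of 1.16 and a log2 difference of 0.21 ± 0.052. In PC-9 the values overlapped, with 54.3, 65.4 and 61.8 in nc against 59.9, 65.1 and 64.8 in shSYK. The log2 difference there was 0.065 ± 0.11, and it was -0.0091 ± 0.091 without nc 1 and 0.12 ± 0.11 without nc 2. SEPT2 overlaps HDLBP on the other strand. Whether strand was used in counting is not given in the sources used here, so reads of the overlap cannot be assigned. HDLBP, a binding protein of lipoprotein particles and RNA, was at 42.2 ± 1.07 FPKM in nc and 35.9 ± 1.39 in shSYK of EBC-1, the opposite direction to SEPT2. In PC-9 it was at 99.7 ± 10.3 and 111 ± 5.01 and in HCC827 at 65.0 ± 0.966 and 66.7 ± 2.07, in both with overlap and with a mean that was higher in shSYK, as for SEPT2.

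SEPT5, a neuronal and platelet septin that binds syntaxin, belongs to the same group and showed the largest difference of the set, in the other direction. In EBC-1 its FPKM was 3.57, 3.91 and 3.33 in nc and 0.269, 0.318 and 0.224 in shSYK, so that shSYK cells held 7.51% of the control level. The gap between the groups was far wider than the spread within them. The counts behind these values were 232 to 292 reads per nc library and 18 to 26 per shSYK library. On the log2(FPKM + 1) scale the difference was -1.86 ± 0.10, and with a pseudocount of 0.1 it was -3.33. SEPT5 passed the filter on low values through the nc libraries. In PC-9 it stood at 2.13, 1.31 and 1.44 in nc and at 1.13, 1.16 and 1.12 in shSYK, lower in each shSYK library than in any control, with a log2 difference of -0.28 ± 0.14. Without nc 1, the highest control, the difference was -0.15 ± 0.12, and without nc 2 it was -0.37 ± 0.15. In HCC827 it was near the detection limit in both groups, between 7 and 16 reads per library, and the groups overlapped.

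SEPT3, the other neuronal septin and the only one of the 8 genes from the SEPT3 group, was lower after knockdown in 2 of the lines. In PC-9 its FPKM was 1.87, 2.31 and 2.46 in nc and 1.32, 1.44 and 1.43 in shSYK. All shSYK libraries stood below the controls, and the log2 difference was -0.42 ± 0.11. It was -0.50 ± 0.11 without nc 1 and -0.39 ± 0.13 without nc 2. In EBC-1 it was below the filter, at 0.748, 0.569 and 0.594 in nc against 0.237, 0.221 and 0.393 in shSYK, from 38 to 56 and 14 to 29 reads, again with no overlap. In HCC827 it had 4 to 20 reads per library, and the groups overlapped.

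The SEPT6 group holds 4 of the 8 genes, and they did not move alike. SEPT10 and SEPT11 were higher in shSYK of EBC-1 and HCC827, while SEPT6 and SEPT8 were lower in EBC-1. For SEPT10 the FPKM in EBC-1 was 8.60, 10.9 and 7.74 in nc and 13.7, 13.5 and 15.4 in shSYK. There was no overlap, the ratio of the means was 1.57 and the log2 difference 0.60 ± 0.12. In HCC827 it was 7.60, 7.83 and 6.74 in nc and 12.9, 12.5 and 12.9 in shSYK. That ratio, 1.73, was the largest upward ratio of the set in HCC827, with a log2 difference of 0.72 ± 0.065. In PC-9 the nc libraries again spread widely, with 5.33 in nc 1, 9.995 in nc 2 and 7.73 in nc 3, against 10.7, 10.2 and 9.28 in shSYK. The PC-9 log2 difference was 0.38 ± 0.19, with 0.17 ± 0.12 without nc 1 and 0.57 ± 0.15 without nc 2.

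SEPT11, which joins SEPT7 in filaments along stress fibres, followed SEPT10. In EBC-1 its FPKM was 12.4, 14.3 and 11.9 in nc and 18.4, 18.2 and 19.6 in shSYK, a ratio of 1.46 and a log2 difference of 0.51 ± 0.083 without overlap. In HCC827 it was 8.75, 8.72 and 7.59 in nc and 13.1, 12.4 and 11.9 in shSYK, a ratio of 1.495 and a log2 difference of 0.53 ± 0.071. The groups were apart there as well. In PC-9 it was 3.64, 5.18 and 4.84 in nc and 5.41, 5.82 and 5.09 in shSYK, where shSYK 3 fell inside the control range. The log2 difference in PC-9 was 0.22 ± 0.13, with 0.099 ± 0.092 without nc 1 and 0.30 ± 0.13 without nc 2.

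SEPT6, the member that gave the group its name, was lower in EBC-1, at 3.97, 4.30 and 4.67 FPKM in nc and 3.01, 3.52 and 3.46 in shSYK. The groups did not overlap, and the log2 difference was -0.30 ± 0.087. It was -0.080 ± 0.10 in PC-9 (-0.040 without nc 1 and -0.16 without nc 2) and -0.031 ± 0.091 in HCC827, with overlap in both. The sign in HCC827 turned to 0.0079 when the libraries were brought to an equal sum of FPKM and to 0.0059 without nc 1. SEPT8, which has also been described at synaptic vesicles, differed in sign between EBC-1 and HCC827. In EBC-1 it was 10.996, 9.85 and 11.8 in nc and 9.17, 9.26 and 8.99 in shSYK, with no overlap and a log2 difference of -0.23 ± 0.078. In HCC827 it was 9.58, 9.76 and 10.04 in nc and 10.8, 11.95 and 10.7 in shSYK, with no overlap and a log2 difference of 0.17 ± 0.061. In PC-9 the groups overlapped and the log2 difference was 0.047 ± 0.086 (0.050 without nc 1 and 0.065 without nc 2).

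**Figure D2:**
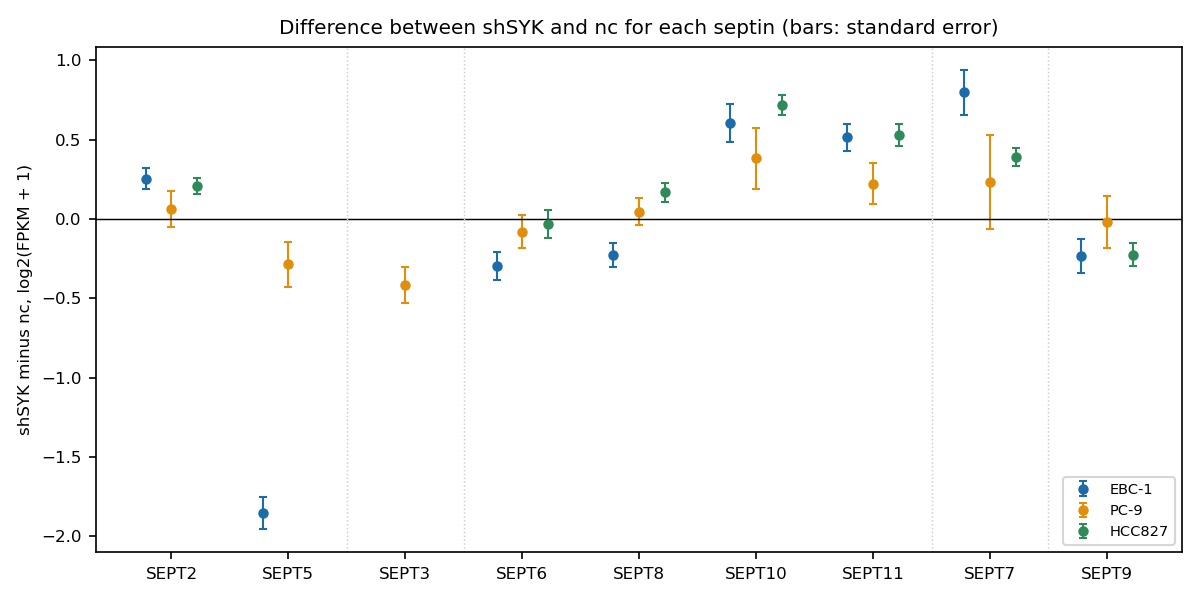
Difference shSYK minus nc on the log2(FPKM + 1) scale with its standard error (n = 3 against 3) for each septin tested in EBC-1 (blue), PC-9 (orange) and HCC827 (green), ordered by group, with SEPT9 added at the right. SEPT2, SEPT7, SEPT10 and SEPT11 lie above 0 in all 3 lines, SEPT5 in EBC-1 is the lowest at -1.86, and SEPT8 changes side between EBC-1 and HCC827. The PC-9 values of SEPT2 and SEPT7 went below 0 without nc 1.

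Past the limma threshold (adjusted p under 0.05 over all genes with a mean of at least 1 FPKM), EBC-1 had 4 septins higher and 3 lower of the 7 that passed the filter. SEPT3 was under it, and SEPT5 passed it through the nc libraries. Of all 12430 genes tested in EBC-1, 44.7% were past the threshold, 23.1% as higher and 21.6% as lower. HCC827 had 4 higher and 0 lower of 6 septins, against 38% of 11999 genes (17.2% higher and 20.7% lower), with SEPT3 and SEPT5 under the filter. In PC-9 it was 0 of 8 septins, against 2.09% of 12089 genes (0.678% higher and 1.41% lower). At an unadjusted p under 0.05 it was 1 septin of 8 in PC-9, against 15.6% of all genes tested. The groups did not overlap upward for 29.7% and downward for 27.2% of the genes tested in EBC-1, 11.4% and 12.3% in PC-9, and 24.7% and 27.6% in HCC827. The median log2 difference of the septins tested was 0.25 for EBC-1, 0.056 for PC-9 and 0.30 for HCC827, and over all genes tested it was 0.0090, 0.0088 and -0.0053, respectively. Since these contrasts chose the genes, nothing is read from these counts and medians, nor from which septin calls hold in other fits. The EBC-1 count fell from 7 to 4 without nc 3 and without shSYK 1. SEPT2 in EBC-1 was no longer past the threshold without nc 1, nc 3, shSYK 1 or shSYK 2, SEPT6 without nc 3, shSYK 1 or shSYK 3, and SEPT8 without any single library but nc 2. In HCC827 the same held for SEPT2 without shSYK 3. In PC-9 the count of all genes past the threshold was 253, and it was 621 without nc 1 and 503 without nc 2.

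The FPKM sum of a library differed between the groups of EBC-1, from 267243 to 280477 in nc and from 247177 to 253541 in shSYK. With equal sums the EBC-1 median over all genes moved from 0.0090 to 0.12, and the genes past the threshold went from 2876 higher and 2686 lower to 4019 higher and 1901 lower. In HCC827 the split went from 2066 higher and 2488 lower to 2482 higher and 1905 lower. Under that scaling the EBC-1 log2 differences were 0.91 for SEPT7, 0.72 for SEPT10, 0.64 for SEPT11, 0.38 for SEPT2, -0.19 for SEPT6, -0.11 for SEPT8 and -1.79 for SEPT5, to be read against that median. The signs held, and SEPT6 and SEPT8 were no longer past the threshold.

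The septin messages were also summed as a pool, again as a description. The summed FPKM of the 13 septins in EBC-1 was 135 ± 1.38 in nc and 141 ± 2.76 in shSYK. The share of SEPT7 in that sum was 4.61% ± 1.19 in nc and 8.11% ± 0.65 in shSYK, and the share of SEPT9 was 45.5% ± 4.38 and 37.1% ± 3.29. Within the SEPT6 group of EBC-1, SEPT10 held 24.3% ± 3.12 of the FPKM in nc and 31.2% ± 1.11 in shSYK, and SEPT11 held 34.6% ± 1.75 and 41.3% ± 0.29. SEPT8 went from 29.4% ± 3.97 to 20.1% ± 1.04 and SEPT6 from 11.6% ± 1.13 to 7.33% ± 0.56. In HCC827 the summed FPKM was 153 ± 2.24 in nc and 168 ± 5.04 in shSYK. SEPT10 held 27.0% ± 0.94 of the SEPT6 group in nc and 33.5% ± 1.08 in shSYK, SEPT11 30.5% ± 1.14 and 32.7% ± 0.996, SEPT8 35.9% ± 2.41 and 29.2% ± 1.58, and SEPT6 6.52% ± 0.43 and 4.52% ± 0.26. In PC-9 the sum was 135 ± 4.57 in nc and 140 ± 3.27 in shSYK. SEPT10 held 29.3% ± 6.13 and 34.7% ± 1.59 of its group, SEPT11 17.5% ± 1.46 and 18.8% ± 0.44, SEPT8 28.5% ± 2.99 and 26.2% ± 0.50, and SEPT6 24.6% ± 4.77 and 20.3% ± 1.05. The 4 shares of a group sum to 100%, so they do not move independently, and the FPKM of SEPT8 was higher, not lower, in shSYK of HCC827. In PC-9 the SD of the nc shares was larger than the difference of the means for each of them.

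**Figure D3:**
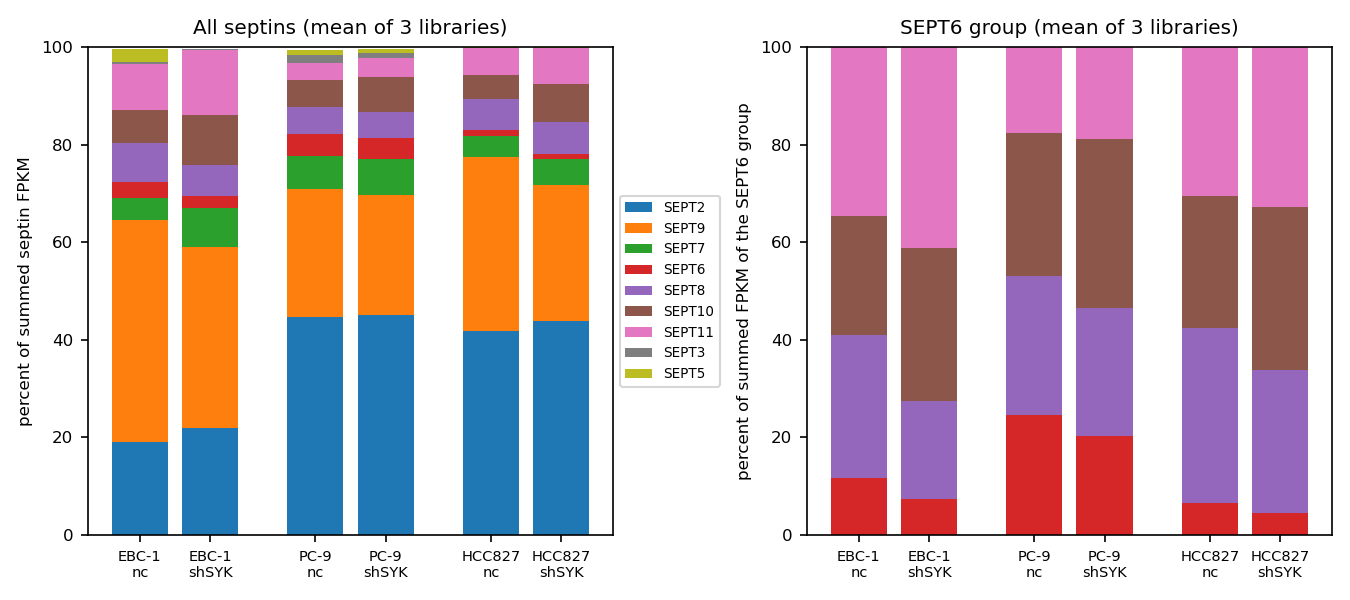
Left, percent of the summed FPKM of all 13 septins taken by each septin (those under 1% in every group not drawn). Right, percent of the summed FPKM of the SEPT6 group, both as means of 3 libraries for nc and shSYK of each line. SEPT2 and SEPT9 make up most of the pool, and the SEPT10 and SEPT11 bands of the right panel are taller in shSYK than in nc in each line.

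SEPT9, the septin present in the longer rods only and the most abundant of the 5 genes outside the set, went the other way from SEPT2 and SEPT7. Its FPKM was 61.7 ± 6.52 in nc and 52.4 ± 5.59 in shSYK of EBC-1, with overlap and a log2 difference of -0.23 ± 0.11. In HCC827 it was 54.8 ± 3.75 and 46.7 ± 3.02 without overlap, with -0.22 ± 0.072, and in PC-9 it was 35.3 ± 7.98 and 34.4 ± 2.47, with -0.017 ± 0.17. The PC-9 sign of SEPT9 turned to 0.15 without nc 1, and it was -0.16 without nc 2. No test is given for SEPT9, which comes from the same contrasts. FPKM of SEPT9 over that of SEPT7 was 10.4 ± 3.20 in nc and 4.61 ± 0.74 in shSYK of EBC-1, 4.90 ± 3.47 and 3.42 ± 0.69 in PC-9, and 8.36 ± 0.54 and 5.25 ± 0.34 in HCC827. SEPT1, a septin of lymphoid cells, reached at most 0.575 FPKM. SEPT4, a septin of testis and brain, and SEPT12, a septin of the sperm annulus, had at most 9 and 6 reads in a library. SEPT14 was listed at 0 in all 18 libraries. Genes of nerve cells (RBFOX3, SNAP25 and SYN1) summed to at most 0.240 FPKM in any library, so these markers were near 0.

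Library by library, SEPT2, SEPT7, SEPT10 and SEPT11 varied together. Over the 18 libraries, each centred on the mean of its cell line, Pearson's r on the log2(FPKM + 1) scale was between 0.87 (SEPT7 with SEPT11) and 0.98 (SEPT10 with SEPT11) for the 6 pairs of these 4 genes. Knockdown and control libraries are pooled there, so the value holds the difference between the groups as well. Centred on each group instead, r was between 0.81 (SEPT2 with SEPT10) and 0.95 (SEPT7 with SEPT10). Without the 3 PC-9 nc libraries, which stood widest apart, these values were between 0.53 (SEPT2 with SEPT10) and 0.87 (SEPT10 with SEPT11) over 15 libraries. In PC-9 nc 1 all 4 genes stood at their lowest of the 6 PC-9 libraries. SEPT6 had a negative r with each of the 4 genes over the 18 libraries, from -0.56 to -0.68, and SEPT8 had values from -0.083 to -0.32. Within groups and without PC-9 nc, SEPT6 was no longer negative with any of them (0.097 to 0.47), while SEPT8 stood between -0.51 and -0.71. Points of one library share its depth and scaling, and no test is attached to these values. For each of the 4 genes, a gene outside the set had a higher r over the 18 libraries than any other septin of the set, as given below.

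**Figure D4:**
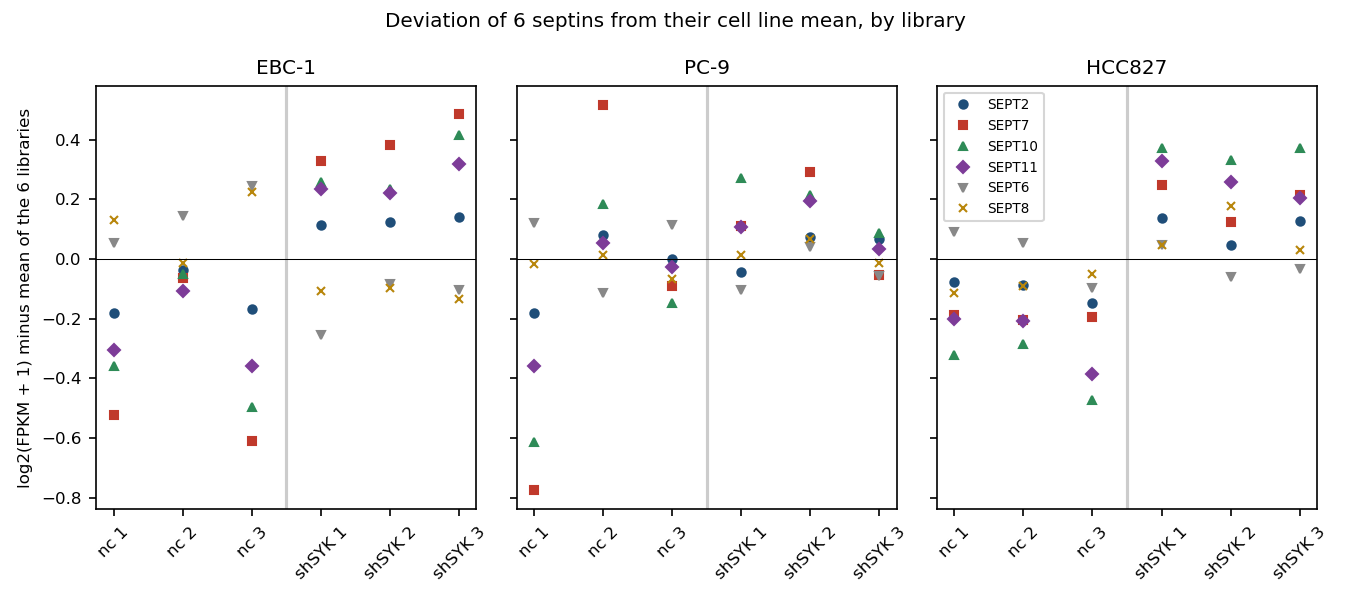
Deviation of 6 septins from the mean of the 6 libraries of each line, on the log2(FPKM + 1) scale, 1 point per gene and library, with nc at the left and shSYK at the right of each panel. SEPT2, SEPT7, SEPT10 and SEPT11 keep together in all panels, including the spread of PC-9 nc 1 and nc 2, and SEPT6 and SEPT8 run apart from them in EBC-1.

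Among the 10030 genes tested in all 3 lines, the gene outside the set with the pattern most like SEPT7 was SRP9, a protein of the signal recognition particle, with r = 0.99 over the 18 centred libraries. For SEPT10 it was QKI, an RNA-binding protein (r = 0.98), for SEPT11 TMEM87A, a membrane protein of the Golgi (r = 0.98), and for SEPT2 OAT, an aminotransferase of ornithine (r = 0.96). SEPT6 and SEPT8 had less close neighbours, FAM229B (r = 0.90) and the mitochondrial proline tRNA gene MT-TP (r = 0.88). SRP9 was at 43.9 ± 6.48 FPKM in nc and its shSYK libraries at 63.3, 67.3 and 65.0 in EBC-1. In PC-9 nc it spread from 72.6 in nc 1 to 123 in nc 2, as SEPT7 did.

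The genes that work with septins were taken from 4 lists, which the choice of the septins did not use as a rule but which were written with earlier results of these data known. Their counts past the threshold are to be read against the share of all genes tested, which was 23.1% higher and 21.6% lower in EBC-1, 17.2% and 20.7% in HCC827 and 0.678% and 1.41% in PC-9. CDC42 is a small GTPase that places septin rings, and the CDC42EP proteins, or Borgs, are its effectors that bind septins. In EBC-1, 1 of 6 genes of this list rose and 3 fell, with a median log2 difference of -0.21. CDC42 rose, from 39.4 ± 2.23 to 56.5 ± 3.47 FPKM (log2 difference 0.51 ± 0.074, adjusted p = 0.0018), and it was past the threshold under each alternative run. CDC42EP5 fell from 17.3 ± 0.59 to 10.4 ± 2.56 (-0.71 ± 0.16, adjusted p = 0.0091) and CDC42EP4 from 24.6 ± 2.09 to 16.6 ± 2.28 (-0.55 ± 0.11, adjusted p = 0.0065). CDC42EP3 fell by 0.23 on the log2 scale (SE 0.062, adjusted p = 0.021), and this call held in 10 of 16 alternatives. It was lost without nc 1, shSYK 1 or shSYK 2, with equal FPKM sums, with a replicate block and in the fit of all 18 libraries. Over all alternatives its log2 difference lay between -0.35 and -0.10, with an adjusted p of up to 0.23. In HCC827, 2 of 5 rose and 1 fell, with a median of -0.059. CDC42EP3 rose there (0.68 ± 0.14, adjusted p = 0.0074), the opposite of EBC-1. CDC42EP4 fell (-0.50 ± 0.081, adjusted p = 0.0033). CDC42 rose (0.20 ± 0.063, adjusted p = 0.042), a call that was lost in 8 of 16 alternatives, those without nc 1, nc 2 or any 1 shSYK library among them, with an adjusted p of up to 0.13. In PC-9 none of 6 was past the limma threshold, and the median was 0.13. Over all 3 other lists and this one, 4 genes of 36 in PC-9 had an unadjusted p under 0.05, against 15.6% of all genes tested.

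The furrow and midbody list holds proteins that septins meet in cytokinesis. In EBC-1, 7 of 13 rose (23.1% of all genes) and 1 fell (21.6%), with a median of 0.30 against 0.0090 over all genes tested. ECT2, the exchange factor that activates RhoA at the furrow, rose from 9.78 ± 1.92 to 19.9 ± 0.89 FPKM (0.97 ± 0.12, adjusted p = 0.001), and ANLN, the anillin that brings septins to the contractile ring, from 14.9 ± 1.91 to 29.6 ± 1.63 (0.95 ± 0.097, adjusted p = 0.00047). In both genes every shSYK library stood above every control. MYH9, the heavy chain of myosin IIA, fell from 163 ± 10.96 to 114 ± 5.56 (-0.51 ± 0.074, adjusted p = 0.0017). In HCC827, 6 of 13 rose and 0 fell, with a median of 0.18. DIAPH3, a formin that builds actin filaments, rose from 2.56 ± 0.10 to 4.10 ± 0.32 (0.52 ± 0.074, adjusted p = 0.0021), and KIF23, the kinesin of the central spindle, from 7.29 ± 0.40 to 10.5 ± 0.15 (0.47 ± 0.058, adjusted p = 0.0012). ANLN rose by 0.42 ± 0.077 (adjusted p = 0.0055). In PC-9 none of 12 was past the threshold, and the median was 0.076. ANLN stood at 21.1 ± 6.25 in nc and 25.3 ± 0.55 in shSYK there, and its log2 difference was 0.29 ± 0.20, with 0.069 ± 0.11 without nc 1 and 0.49 ± 0.15 without nc 2.

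Markers of dividing cells were examined beside this list. Of MKI67, TOP2A, CCNB1, CCNB2, CDK1, BIRC5 and PLK1, 5 rose in EBC-1, 3 in HCC827 and none in PC-9, and no marker fell past the threshold. In HCC827, 4 of the 7 were not past the threshold, MKI67 and TOP2A among them, and PLK1 had a log2 difference of -0.086 ± 0.075. The shares of all genes tested that rose were 23.1%, 17.2% and 0.678%, so the PC-9 count was near that share. The summed FPKM of the 7 markers ranged from 146 to 151 in nc and 202 to 219 in shSYK of EBC-1, from 251 to 272 and 296 to 308 in HCC827, and from 245 to 255 and 275 to 280 in PC-9. None of the 7 was at 0 in any group. Their part in the septin and furrow values was not tested. In these bulk samples a larger share of dividing cells and more RNA per dividing cell cannot be told apart.

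Of other partners of septins, 4 of 7 fell and 2 rose in EBC-1, where 44.7% of all genes were past the threshold, with a median of -0.27. With equal FPKM sums HDAC6 and SOCS7 were no longer past it. NCK2, an adaptor that septins hold in the cytoplasm through SOCS7, fell from 35.0 ± 2.38 to 23.0 ± 2.002 FPKM (-0.59 ± 0.087, adjusted p = 0.0019). HDAC6, the tubulin deacetylase, fell from 3.21 ± 0.050 to 2.38 ± 0.13 (-0.32 ± 0.076, adjusted p = 0.013). The other pair of genes that fell was SOCS7 and STX1A, the latter named after its value was seen. KMT2A, a histone methyltransferase known to be fused to septin genes in leukaemia, rose (0.42 ± 0.11, adjusted p = 0.015), with the call lost without nc 1 or nc 3 and an adjusted p of up to 0.053. NCK1 rose as well (0.35 ± 0.096, adjusted p = 0.022), with the call lost without nc 1, nc 3 or any 1 shSYK library and an adjusted p of up to 0.076. SOCS7 fell in HCC827 (-0.31 ± 0.060, adjusted p = 0.006) as the only one of 8, where the median was -0.072. In EBC-1 it fell too (-0.27 ± 0.081, adjusted p = 0.031), but that call was lost in 7 of 16 alternatives, those without nc 1, nc 3, shSYK 2 or shSYK 3 among them, with an adjusted p of up to 0.13. In PC-9, 1 of 8 fell. It was NCK2 (13.8 ± 1.86 to 8.14 ± 0.16, -0.69 ± 0.11, adjusted p = 0.032), the difference was -0.59 without nc 1 and -0.75 without nc 2, and the call was lost without nc 3 or any 1 of the shSYK libraries, with an adjusted p of up to 0.17.

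Tubulins, the subunits of the other large filament system that septins run along, gave no common direction. In EBC-1, 3 of 10 rose and 0 fell, with a median of 0.065. TUBA4A rose from 16.1 ± 1.14 to 27.6 ± 1.95 FPKM (0.74 ± 0.081, adjusted p = 0.00063) and TUBA1C from 64.9 ± 7.26 to 87.0 ± 3.71 (0.42 ± 0.092, adjusted p = 0.0086). In HCC827, 1 of 11 rose and 3 fell, with a median of 0.0060. TUBB2A rose in HCC827 (0.46 ± 0.13, adjusted p = 0.03), and also in EBC-1 (0.37 ± 0.11, adjusted p = 0.032). Its call was lost without any 1 nc library in both lines, and also without shSYK 2 in HCC827 and without shSYK 1 or shSYK 3 in EBC-1, with an adjusted p of up to 0.099 and 0.13. TUBA1B (-0.24 ± 0.077, adjusted p = 0.041) and TUBB4B (-0.24 ± 0.067, adjusted p = 0.026) fell in HCC827, and each of these calls was lost in 10 of 16 alternatives. For TUBA1B those without any 1 nc library, shSYK 2 or shSYK 3 were among them (adjusted p of up to 0.27), and for TUBB4B those without nc 1, nc 3, shSYK 2 or shSYK 3 (up to 0.23). The third was TUBG1, named after its value was seen. Tubulin genes are close copies of each other and of pseudogenes, so their values are uncertain. In PC-9 none of 10 was past the threshold.

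Over the 4 lists together, 13 genes rose and 8 fell of 36 tested in EBC-1, 9 rose and 5 fell of 37 in HCC827, and 0 rose and 1 fell of 36 in PC-9. The shares of all genes past the threshold in either direction were 44.7%, 38% and 2.09%, so the HCC827 and PC-9 counts were close to the background. Of these, 7 genes rose in both EBC-1 and HCC827, 2 fell in both and 1, CDC42EP3, went opposite ways, with an EBC-1 call that held in 10 of 16 alternatives. None was past the threshold in the same direction in all 3 lines. The share of all genes past the threshold in both lines was not computed, so nothing is read from the shared counts. Between the lines, the knockdown differences of 34 list genes were set against each other in a limma fit of the 18 libraries, in 102 tests adjusted over 10030 genes and the 3 pairs of lines. They differed in 10 tests, in 7 genes. Between EBC-1 and PC-9 it was 6 of 34 (17.7% of all genes), between EBC-1 and HCC827 3 of 34 (18.3%) and between PC-9 and HCC827 1 of 34 (7.58%), so these counts were at or below the share of all genes. The septins themselves were left out of this test, since their contrasts had chosen them.

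**Figure D5:**
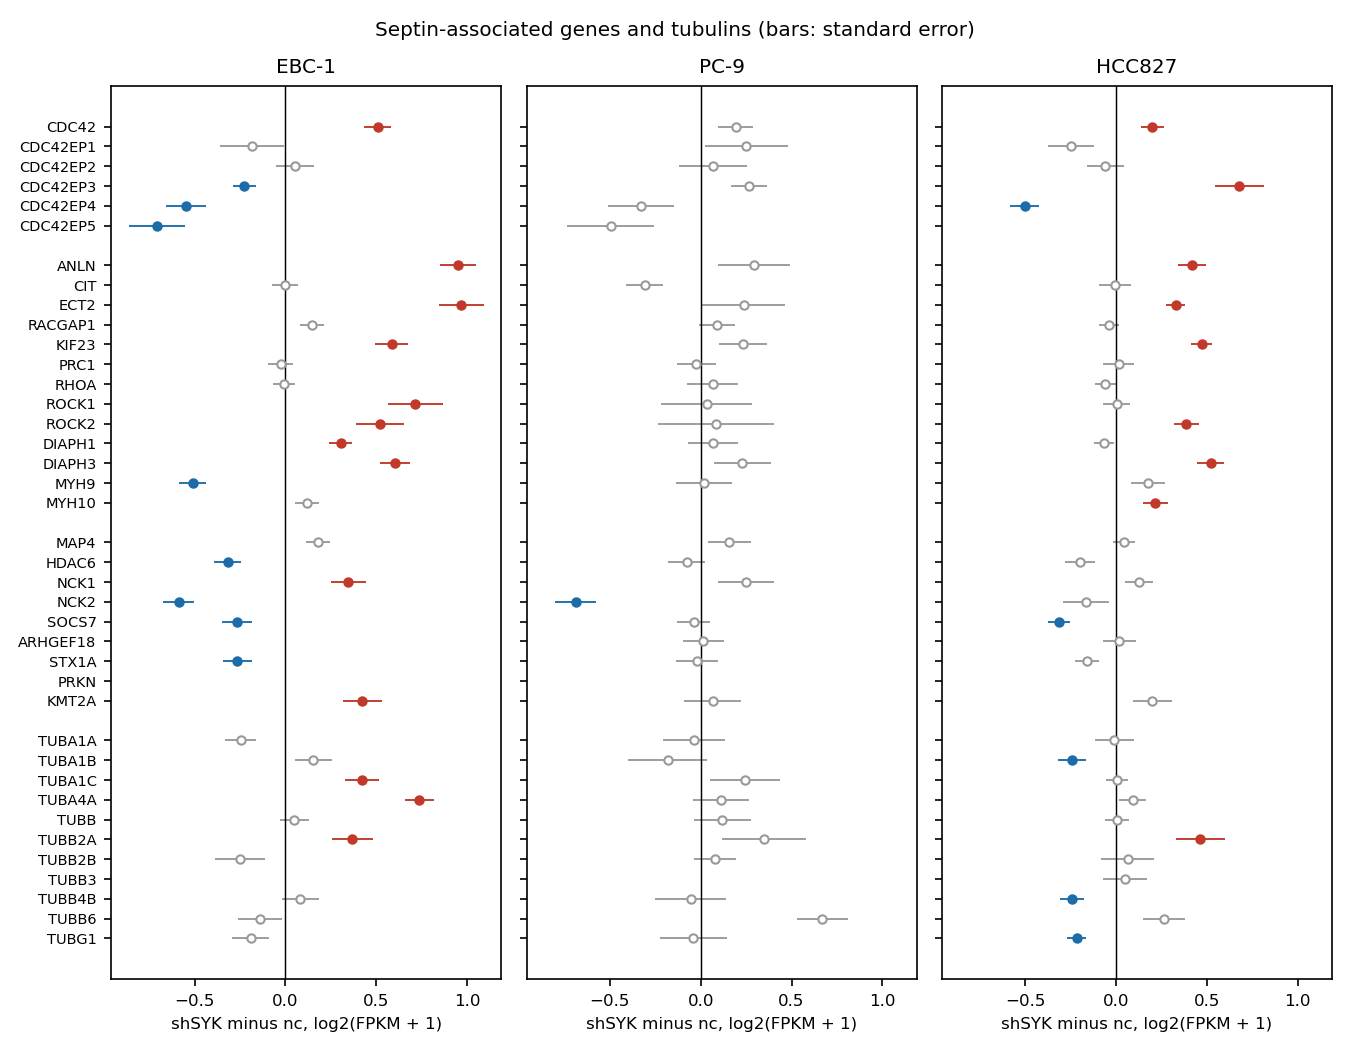
Difference shSYK minus nc on the log2(FPKM + 1) scale with its standard error (n = 3 against 3) for the genes of the 4 lists tested in each line, from top to bottom CDC42 and Borgs, furrow and midbody, other partners, tubulins. Filled red points rose and filled blue points fell at an adjusted p under 0.05, and open points did not pass. PC-9 shows a single filled point, NCK2.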

How the data were processed

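The deposited tables, 1 per cell line, hold FPKM per gene, which the authors computed from reads per gene and the gene length given beside them. The supplementary methods name TRIzol extraction, an Illumina HiSeq system and hg38, and the submitters' processing notes name HISAT2 and CASAVA. The counting program, its use of strand and the annotation are not given in the sources used here. Multiplied by gene length, 100% of the FPKM values of a library were whole multiples of the same step (within 0.01), so that reads were recovered. Genes were filtered on mean FPKM and not on reads, and the read numbers cover counting error only. Columns were assigned to groups from the labels, which give no batch, and no library was left out.

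Values were taken as log2(FPKM + 1), and each line was fitted alone by limma 3.58.1 (R 4.3.3) with a variance trend, over genes with a mean of at least 1 FPKM, and p-values were Benjamini-Hochberg adjusted over all genes tested (threshold 0.05). The step was tested on simulated data first. Differences of knockdown contrasts between lines came from a fit of the 18 libraries. Alternatives were a pseudocount of 0.1, no filter or one at a mean of 5 FPKM, equal FPKM sums, quantile normalization, no variance trend, limma-voom on recovered reads, removal of the gene length trend (lowess, span 0.3), a replicate block, each library left out, and 1 fit of all libraries. Tables were normalized separately, so no level was tested between lines. Figures and tables were made in Python 3.11.15 with matplotlib 3.10.9. The septins and the gene lists were chosen with earlier results of these data known. Named genes are all septins, SYK, the 2 largest changes past the threshold in each direction per list and line, list genes past the threshold in the same direction in all 3 lines, and the most correlated gene of each septin. STX1A, TUBG1 and TUBB6 fall outside this rule and were named after their values were seen. One promoter sequence is not reported here.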

Additional observations from a re-analysis of the deposited data

Results flagged for a closer look

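The knockdown difference of 7 genes from the septin-associated lists was not the same in 2 of the cell lines by limma (interaction in the fit of 18 libraries, Benjamini-Hochberg adjusted over 10030 genes and 3 pairs of lines). All values are differences of log2(FPKM + 1) differences, first line minus second, with their SE. Between EBC-1 and PC-9 it was 0.66 ± 0.21 for ANLN (adjusted p = 0.046), 0.32 ± 0.10 for CDC42 (adjusted p = 0.047), 0.63 ± 0.16 for TUBA4A (adjusted p = 0.015), -0.53 ± 0.16 for MYH9 (adjusted p = 0.037), -0.49 ± 0.15 for CDC42EP3 (adjusted p = 0.038) and -0.81 ± 0.19 for TUBB6 (adjusted p = 0.0094). TUBB6 stood at 23.7 and 21.2 FPKM in nc and shSYK of EBC-1 and at 18.6 and 29.9 in PC-9. By limma within each line it was not past the threshold in EBC-1 (adjusted p = 0.37) or PC-9 (adjusted p = 0.062). Its PC-9 difference without nc 1 or nc 2 is not given here. Between EBC-1 and HCC827 it was -0.69 ± 0.16 for MYH9 (adjusted p = 0.009), 0.65 ± 0.16 for TUBA4A (adjusted p = 0.013) and -0.90 ± 0.15 for CDC42EP3 (adjusted p = 0.00076). Between PC-9 and HCC827 it was -0.52 ± 0.16 for NCK2 (adjusted p = 0.042). These were 6 of 34 list genes, against 17.7% of all genes, then 3 of 34 against 18.3% and 1 of 34 against 7.58%, so the counts are not particular to these lists. The count of 10 such differences became 5 with a replicate block and 19 after quantile normalization. No fit between lines left out a library. Within PC-9, the log2 differences without nc 1 and without nc 2 were 0.069 and 0.49 for ANLN and 0.16 and -0.095 for MYH9. They were 0.27 and -0.030 for TUBA4A, 0.21 and 0.33 for CDC42EP3, 0.19 and 0.17 for CDC42, and -0.59 and -0.75 for NCK2.

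Among the septins, SEPT8 was lower in every shSYK library of EBC-1 than in the controls and higher in every shSYK library of HCC827. Of all genes tested, 27.2% did not overlap downward in EBC-1 and 24.7% did not overlap upward in HCC827. SEPT8 was past the threshold in EBC-1, which held in 7 of 16 alternatives, and was not past it in HCC827. The log2 differences of SEPT8 lay -0.39 apart (EBC-1 minus HCC827), and this difference was not tested, since the contrasts had chosen the septins.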

How the results depend on the processing

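The EBC-1 count of septins past the threshold ranged from 4 to 7 with 1 library left out, that of PC-9 from 0 to 1 (1, SEPT3 as lower, without nc 1) and that of HCC827 from 3 to 4. The same contrasts had chosen the septins, so nothing is read from their counts. A fit of all 18 libraries gave 1 septin in PC-9. List genes in PC-9, 1 as reported, were 0 without a filter, 2 with equal FPKM sums, with quantile normalization, with limma-voom on recovered reads and with the gene length trend removed, 3 in the fit of all 18 libraries and 0 to 2 with 1 library left out (2 without nc 1, 0 without nc 3 or any 1 shSYK library). List genes in HCC827, 14 as reported, were 9 without a filter, 8 in the fit of all 18 libraries and 8 to 12 with 1 library left out (8 without nc 1 and 9 without shSYK 2). List genes in EBC-1, 21 as reported, were 14 to 24 with 1 library left out. The differences between lines, 10 as reported, were 19 after quantile normalization and 5 with a replicate block. All genes past the threshold in PC-9, 253 as reported, were 47 without a filter, 491 with equal sums, 505 with quantile normalization, 413 by limma-voom, 1511 in the fit of all 18 libraries and 7 to 621 with 1 library left out. In EBC-1 they were 5562 as reported and 3579 with a filter at a mean of 5 FPKM. The cause of these changes was not tested. The log2 difference of SEPT5 in EBC-1 lay between -3.74 (limma-voom) and -1.79 (equal sums), and that of SEPT7 there between 0.67 (gene length trend removed) and 0.97.

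Replicate numbers gave no regular pairing of the libraries, though 3 libraries per group are too few to exclude one. The correlation of the deviations of same-numbered nc and shSYK libraries lay between -0.22 and 0.33, and not every library correlated best with its own number. With the replicate block, EBC-1 had 5 septins and 18 list genes past the threshold, PC-9 had 0 and 1, and HCC827 had 4 and 13. SEPT3 and SEPT5 in HCC827 and SEPT3 in EBC-1 were below the filter of a mean of 1 FPKM and were not tested. Their 4 to 56 reads per library limit the precision of those values.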
